A study of Mus musculus with 6 samples.

Results

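The platelet-derived growth factor (PDGF) genes described here are the receptor genes Pdgfra and Pdgfrb, the receptor-like gene Pdgfrl and the ligand genes Pdgfa, Pdgfb, Pdgfc and Pdgfd, 7 of 22180 genes tested. They were chosen by name, and each had 1 probe set that the platform annotation gave this symbol alone, so no choice among probe sets was needed. All 7 were measured, and none was removed by a filter. RNA came from primary lung fibroblasts of wild-type male C57BL/6 mice aged 8 weeks, enriched from digested whole lung, grown in serum and passaged at most 3 times. Cells were split into wells and received vehicle (3 wells) or purmorphamine (3 wells), at a dose written as 5um in the labels and read here as 5 µM, for 24 h. Purmorphamine is a small molecule agonist of Smoothened, the membrane protein that passes Hedgehog signals to the Gli transcription factors. There was 1 array per well, and nothing says that the wells came from separate mice or cultures, so p-values measure only the spread between these wells, which may be technical.

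PDGF ligands are secreted dimers that bind and pair receptor tyrosine kinases, which then recruit adaptors, lipid kinases and Ras activators and drive division, migration and survival of mesenchymal cells. PDGF-A and PDGF-C act mainly through the alpha receptor, PDGF-D mainly through the beta receptor, and PDGF-B through both. In the lung, PDGF-A from epithelium acts on Pdgfra-expressing fibroblasts that are needed for alveoli to form, while PDGF-B from endothelium recruits Pdgfrb-expressing pericytes and smooth muscle.

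Promoter windows are shown for Pdgfra, whose array value rose most among these genes, and for the ligand genes Pdgfa and Pdgfd, which did not pass the test. They come from RefSeq on build GRCm38.p6 and hold the 250 bases before a transcript start, read 5′ to 3′ on the gene's own strand. RefSeq windows were given for 4 of the 7 genes, among them 2 starts of Pdgfa, of which the upstream one is printed. Pdgfra lies on the plus strand at chr5:75152001-75152250, Pdgfa on the minus strand at chr5:138994945-138995194 and Pdgfd on the plus strand at chr9:6168236-6168485. Capitals mark every match, on either strand, to the letters CCACCC, the core of the site that Gli factors bind. They also mark the GC box, spelled GGGCGG, and the TATA box, spelled TATAAA, and there too both strands were read. A further motif, the CCAAT box, was in none of the 3 windows.
Pdgfra: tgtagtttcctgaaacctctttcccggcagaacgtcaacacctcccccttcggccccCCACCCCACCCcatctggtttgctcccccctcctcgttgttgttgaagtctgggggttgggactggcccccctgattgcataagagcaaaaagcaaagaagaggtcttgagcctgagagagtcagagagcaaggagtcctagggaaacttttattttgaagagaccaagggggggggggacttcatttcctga
Pdgfa: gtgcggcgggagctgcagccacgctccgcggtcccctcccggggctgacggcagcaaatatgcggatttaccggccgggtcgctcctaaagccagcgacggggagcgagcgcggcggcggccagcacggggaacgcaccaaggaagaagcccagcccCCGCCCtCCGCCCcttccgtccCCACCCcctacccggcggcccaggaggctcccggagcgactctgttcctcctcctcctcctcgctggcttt
Pdgfd: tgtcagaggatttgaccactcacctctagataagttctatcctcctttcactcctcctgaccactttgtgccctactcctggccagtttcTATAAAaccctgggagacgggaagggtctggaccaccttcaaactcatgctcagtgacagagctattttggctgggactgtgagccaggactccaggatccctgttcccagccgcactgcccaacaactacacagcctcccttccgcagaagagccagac

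The Pdgfra window held 2 CCACCC matches that share a base, starting 193 and 188 bases before the transcript start. The Pdgfa window held 1, starting 71 bases before, beside 2 GC boxes, and the Pdgfd window held none but a TATA box starting 160 bases before. Of 32851 RefSeq windows of this length, 28.1% hold the Gli core, 32.7% the GC box and 12.4% the TATA box, so none of these matches is rare. The full Gli consensus GACCACCCA, present in 0.225% of windows, was in none of the 5 windows given for these genes. The windows differed in base composition: GC content was 54.4% for Pdgfra, 53.6% for Pdgfd, 50.8% for Pdgfc, and 66.4% and 72.4% for the 2 starts of Pdgfa, against a median of 52.4%. The ratio of observed CpG dinucleotides to those expected from the C and G content was 0.216 for Pdgfra, 0.176 for Pdgfd and 0.187 for Pdgfc, and 0.819 and 0.871 for the starts of Pdgfa. A match of letters is a description of the sequence and says nothing about whether a factor binds there.

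The comparison of purmorphamine with vehicle asked which transcripts a Hedgehog agonist changes in these cultures. Gli1 and Hhip, Hedgehog pathway genes held in the marker lists below and picked after their calls were seen, did not pass the test. Whether the pathway was active in these wells was not tested. All 3 receptor and receptor-like genes rose, Pdgfra by 1.78-fold, Pdgfrl by 1.31-fold and Pdgfrb by 1.30-fold, and none of the 4 ligand genes passed the test. Array values are on the log2 scale throughout, as the authors deposited them, and a gene was called at a Benjamini-Hochberg adjusted p under 0.05 in a limma fit over all genes. The background was 14.3% of genes called in either direction, 7.18% risen and 7.16% fallen. The median difference of the 7 genes was 0.20, against -0.01 for all genes tested. The purmorphamine arrays lay wholly above the vehicle arrays in 4 of the 7 genes and wholly below in 0, while 34.2% of all genes had groups that did not overlap, 17.1% with purmorphamine higher and 17.1% with it lower.

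**Figure D1:**
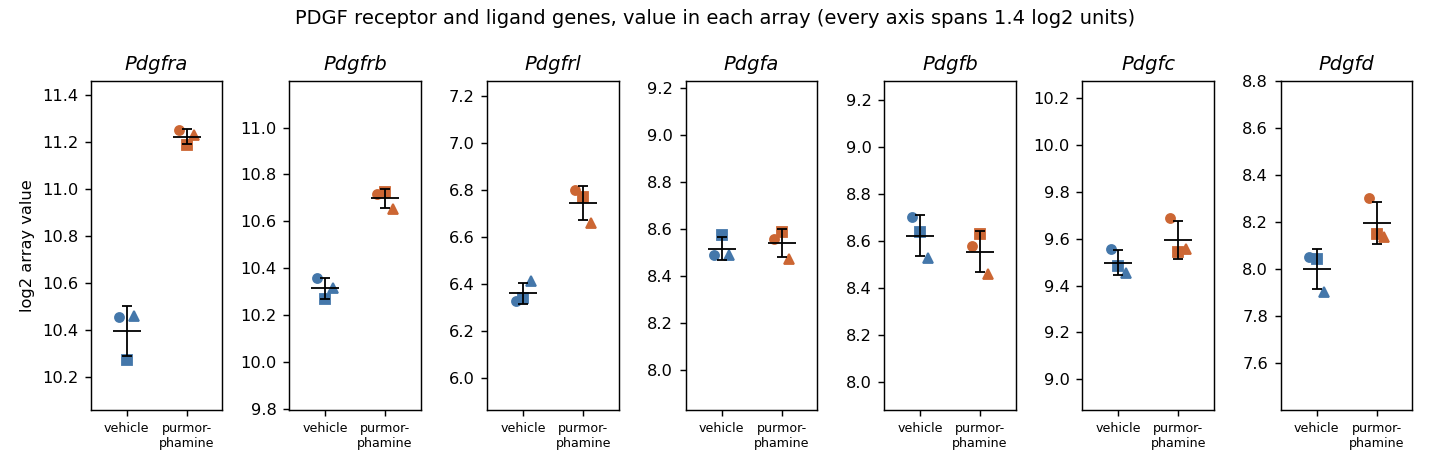
Log2 array value (vertical axes, each spanning 1.4 log2 units) of each PDGF gene in the 3 vehicle arrays (blue) and the 3 purmorphamine arrays (orange), with circle, square and triangle for replicates 1, 2 and 3 and black bars for the mean ± SD. The groups are separate for Pdgfra, Pdgfrb, Pdgfrl and Pdgfd and overlap for Pdgfa, Pdgfb and Pdgfc.

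Pdgfra encodes the alpha receptor, a surface marker of lung fibroblasts. Its array values were 10.45, 10.27 and 10.46 with vehicle and 11.25, 11.19 and 11.23 with purmorphamine. The lowest purmorphamine array stood well above the highest vehicle array, and the 3 purmorphamine arrays lay closer together than the vehicle arrays, among which replicate 2 was lowest. The mean went from 10.39 ± 0.11 to 11.22 ± 0.03 (SD, n = 3), a rise of 0.83 (SE 0.07, 95% interval 0.67 to 0.99, limma adjusted p = 0.000578). As a fold this is 1.78, with an interval of 1.59 to 1.98. It was the rise ranked 80 among the 22180 genes.

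Pdgfrb encodes the beta receptor, used by pericytes, smooth muscle and many cultured fibroblasts. It read 10.36, 10.27 and 10.32 with vehicle against 10.72, 10.73 and 10.65 with purmorphamine. Every purmorphamine array was above every vehicle array, and the spread within each group was small. The mean went from 10.32 ± 0.04 to 10.70 ± 0.04 (SD, n = 3), a rise of 0.38 (SE 0.05, 95% interval 0.26 to 0.51, limma adjusted p = 0.00412).

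Within each array, the log2 value of Pdgfra minus that of Pdgfrb was 0.10, -0.001 and 0.14 with vehicle and 0.53, 0.46 and 0.58 with purmorphamine. The ratio of the receptor transcripts therefore shifted toward Pdgfra in all 3 purmorphamine arrays. The shift was 0.45, with an exact two-sided permutation p of 0.1, which is the smallest that 3 arrays against 3 allow. Only the change of this ratio is meaningful, since values of different probe sets do not share a scale of abundance.

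Pdgfrl encodes a secreted protein that resembles the ligand-binding part of the PDGF receptors and has no kinase. Its values of 6.33, 6.34 and 6.41 with vehicle and 6.80, 6.77 and 6.66 with purmorphamine did not overlap. The purmorphamine array nearest to the vehicle group was replicate 3. The mean went from 6.36 ± 0.05 to 6.74 ± 0.07 (SD, n = 3), a rise of 0.38 (SE 0.06, 95% interval 0.24 to 0.53, limma adjusted p = 0.00653). These values lie below the array medians over genes, 6.93 to 6.96, where differences are compressed. The rise was 0.25 when 50 was added on the linear scale before taking logs. That step shrinks the difference of any dim gene, so this value says nothing about compression.

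None of the ligand genes passed the test. Pdgfa, whose product is the alpha receptor ligand made mostly by epithelium in the lung, read 8.49, 8.57 and 8.49 with vehicle and 8.56, 8.59 and 8.47 with purmorphamine. The groups overlapped fully, and the difference was 0.02 (SE 0.06, 95% interval -0.11 to 0.16, limma adjusted p = 0.851). Pdgfb, made in tissues by endothelium, megakaryocytes and macrophages, was the single gene of the 7 with a lower purmorphamine mean. It read 8.70, 8.64 and 8.53 with vehicle and 8.58, 8.63 and 8.46 with purmorphamine. Replicate 3 was the lowest of its group in both conditions, and the difference was -0.07 (SE 0.07, 95% interval -0.24 to 0.10, limma adjusted p = 0.600).

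Pdgfc and Pdgfd encode ligands that are secreted in latent form and need a protease to cut off their CUB domain before they bind a receptor. Pdgfc values were 9.55, 9.48 and 9.45 with vehicle and 9.69, 9.54 and 9.56 with purmorphamine. Vehicle replicate 1 reached into the purmorphamine range, and the difference was 0.10 (SE 0.06, 95% interval -0.05 to 0.24, limma adjusted p = 0.368). Pdgfd values were 8.05, 8.04 and 7.90 with vehicle and 8.30, 8.15 and 8.14 with purmorphamine. The Pdgfd groups did not overlap, yet vehicle replicate 3 and purmorphamine replicate 1 each stood apart from their group. The difference of 0.20 (SE 0.07, 95% interval 0.03 to 0.37) had a limma adjusted p of 0.119 and did not pass.

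The ligand intervals limit rises to 1.12-fold for Pdgfa, 1.07-fold for Pdgfb, 1.18-fold for Pdgfc and 1.29-fold for Pdgfd, all under the lower limit of 1.59-fold for Pdgfra. For Pdgfrb and Pdgfrl, whose lower limits were 1.20-fold and 1.18-fold, the intervals overlap that of Pdgfd, and the upper limit of Pdgfc just reaches the lower limit of Pdgfrl. A difference in response between receptor and ligand genes was not tested as such.

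**Figure D2:**
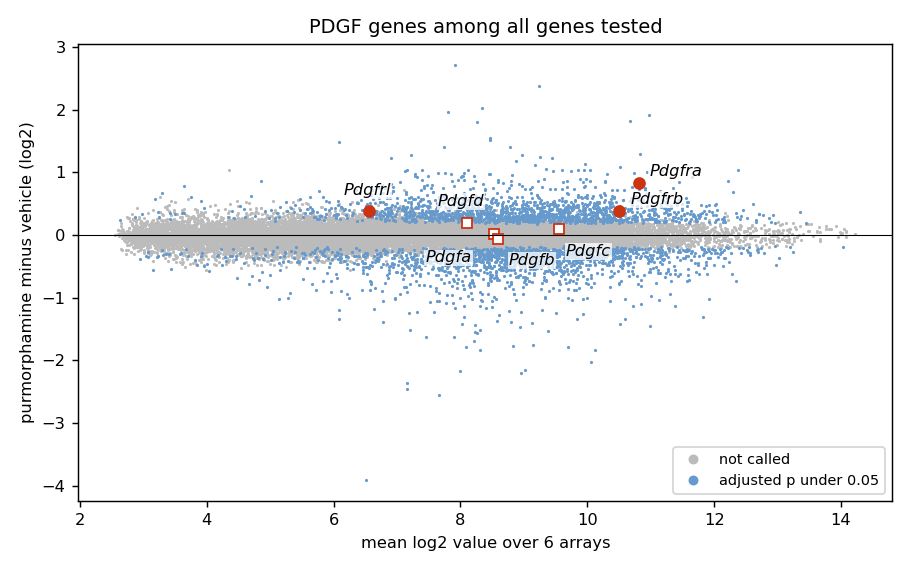
Difference between purmorphamine and vehicle (log2, vertical axis) against the mean log2 value over 6 arrays (horizontal axis) for all 22180 genes, with genes at adjusted p under 0.05 in blue, others in grey, called PDGF genes as filled red circles and PDGF genes that were not called as open red squares. Pdgfra has the highest difference of the 7, at 0.83, and the 4 ligand genes lie within 0.20 of 0.

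Cell type markers were measured in the same arrays. Pan-fibroblast markers were bright, with vehicle means of 13.72 for Vim and 12.77 for Col1a1, and 12 of 13 measured lay above the median of all gene values. They moved with the receptor genes: 8 of 13 rose and 1 fell, with a median difference of 0.29. Col1a2 rose by 0.48, Dcn by 0.46 and Fbln1 by 0.34, while Thy1 fell by 0.32. In fits on 5 arrays, 4 to 6 of the markers rose: 5 in each fit that lacked vehicle replicate 1 or 2 or purmorphamine replicate 1, and 4 in the fit that lacked purmorphamine replicate 3. The summed level of these markers, the log2 of their added linear values, was 15.05 to 15.08 with vehicle and 15.21 to 15.25 with purmorphamine. In bulk cultures, fewer cells of a type and less RNA per cell cannot be told apart.

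Set against the mean of these 13 markers in each array, a scaling chosen after seeing the data, Pdgfra was still higher with purmorphamine, by 0.60 (SE 0.06, limma adjusted p = 0.000624). On that scale Pdgfrb differed by 0.15 (adjusted p = 0.0525) and Pdgfrl by 0.15 (adjusted p = 0.0848), and neither passed the test in limma. The ligand genes then differed by -0.21 for Pdgfa (limma adjusted p = 0.0386), -0.30 for Pdgfb (0.0153), -0.13 for Pdgfc (0.0890) and -0.03 for Pdgfd (0.693). Relative to these markers, Pdgfa and Pdgfb were lower with purmorphamine, while their values as deposited did not pass. The same scaling moved the median difference of all genes to -0.24, near the values of both genes. Their p-values on this scale test against 0 and do not set them apart from other genes. All differences on this scale are to be read against that shift, and the share of all genes called on it is not given here.

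**Figure D3:**
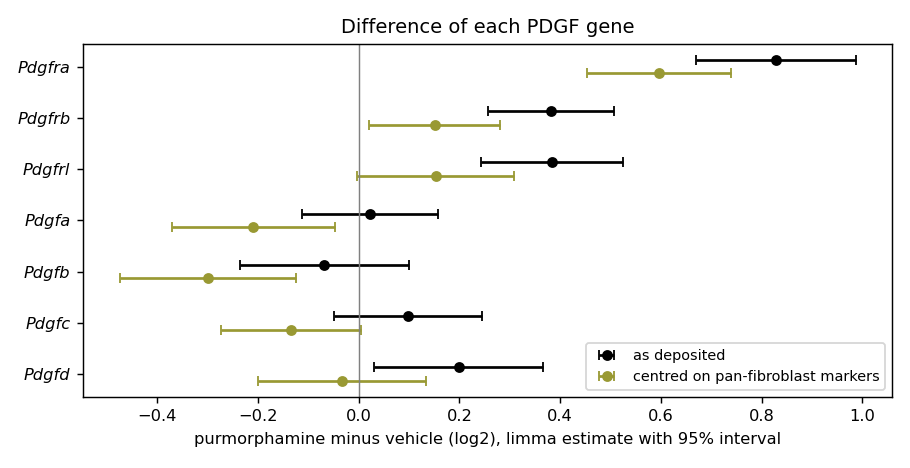
Purmorphamine minus vehicle (log2, horizontal axis) for each PDGF gene, as limma estimates with 95% intervals, from the deposited values (black) and after subtracting each array's mean over 13 pan-fibroblast markers (olive). Pdgfra stays clear of 0 on both scales, at 0.83 and 0.60, while Pdgfrb and Pdgfrl shrink to 0.15.

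Macrophage and leukocyte markers were bright in these cultures as well, with vehicle means of 13.96 for Lyz2 and 13.21 for Cd68, and all 15 lay above the median of all gene values. Of these, 5 fell, 1 rose and 9 did not pass, with a median difference of -0.02. Itgam fell by 1.46, Coro1a by 0.71, Csf1r by 0.63 and Mrc1 by 0.62. The 1 rise, that of Itgax by 0.31, was picked after its value was seen. Their summed level was 16.08 to 16.09 with vehicle and 15.97 to 16.02 with purmorphamine. Of 5 platelet markers, 3 lay above the median of all gene values with vehicle. Among the 5, 2 did not pass and 3 fell: the chemokine genes Ppbp by 0.97 and Pf4 by 0.66, and Gp6 by 0.38. With 1 array left out, Gp6 passed only without purmorphamine replicate 2. The summed level of the platelet markers was 12.67 to 12.72 with vehicle and 11.91 to 12.00 with purmorphamine. Their median vehicle mean was only 7.14, so few of the 5 genes carry that sum. Cells of both kinds are known sources of Pdgfb and Pdgfa. Whether platelets or megakaryocytes were present in these cultures was not tested, nor was the part of either kind in the ligand values.

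Endothelial markers, which belong to another source of Pdgfb, rose in 4 of 12 cases and fell in 0: Vwf by 0.50, Pecam1 by 0.30, Cdh5 by 0.34 and Tie1 by 0.36. Their summed level was 12.18 to 12.27 with vehicle and 12.39 to 12.45 with purmorphamine, and Emcn and Cdh5 were the brightest, at vehicle means of 10.46 and 10.35. With 1 array left out, Cdh5 was not called without purmorphamine replicate 2 or 3, and Tie1 without vehicle replicate 2 or 3 or purmorphamine replicate 1 or 3, and 2 endothelial markers were called without purmorphamine replicate 3. Epithelial markers, for the main lung source of Pdgfa, gave 1 rise in 12, that of Epcam by 0.50, with summed levels of 12.23 to 12.28 and 12.25 to 12.27. The brightest epithelial markers were the keratin gene Krt18 (vehicle mean 10.61) and the cadherin gene Cdh1 (10.15), while the surfactant genes and Scgb1a1, of club cells, lay below the median of all gene values. Mesothelial markers gave 1 rise in 7, that of Bnc1 by 0.42, which of the fits on 5 arrays passed only in the one lacking vehicle replicate 1, with Msln (9.49) and Upk1b (8.74) as the brightest and summed levels of 10.85 to 10.91 and 10.89 to 10.96. What these cells contribute to the ligand values was not tested.

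Among mesenchymal subtypes that carry the receptors, markers of alveolar and lipid fibroblasts, the Pdgfra-expressing cells of the alveolar wall, rose in 3 of 12 cases and fell in 0. Fgf10, a growth factor for epithelium, rose by 0.79, the transcription factor gene Tcf21 by 0.42 and Meox2 by 0.34, the last not called when vehicle replicate 2 or purmorphamine replicate 1 or 3 was left out. The brightest of this list, Plin2 (vehicle mean 12.67) and Npnt (11.06), differed by -0.02 and -0.05. The list's summed level was 13.30 to 13.32 with vehicle and 13.27 to 13.36 with purmorphamine. Adventitial fibroblast markers gave 1 fall in 11, that of Col14a1 by 0.27, which was not called without vehicle replicate 1 or 2 or purmorphamine replicate 1 or 2. Igf1 (10.04) and Sfrp1 (9.76) were the brightest of them. The median difference of this list was 0.07, and its summed level was 11.37 to 11.49 with vehicle and 11.49 to 11.52 with purmorphamine.

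Pericyte markers, which go with Pdgfrb in vessels, rose in 2 of 12 cases and fell in 1. Rgs5, a regulator of G-protein signalling used to mark pericytes, rose by 1.22, which is 2.34-fold, and the Notch receptor gene Notch3 rose by 0.43. The proteoglycan gene Cspg4, which encodes NG2, fell by 0.31, a call lost without vehicle replicate 2 or 3 or purmorphamine replicate 1 or 2. Mcam (9.92) and Cspg4 (8.11) were the brightest, and the summed level was 11.17 to 11.21 with vehicle and 11.14 to 11.21 with purmorphamine. The 3 called pericyte markers thus did not share a direction.

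Of 13 myofibroblast and smooth muscle markers, 5 fell, 1 rose and 7 did not pass, with a median difference of -0.16. Smooth muscle myosin Myh11 fell by 0.47, Myl9 by 0.28 and calponin Cnn1 by 0.24, and Lgr6, a receptor of Wnt signalling, rose by 0.33. The brightest were Acta2 (vehicle mean 14.13) and Cnn1 (12.80). Acta2 fell by 0.19 (limma adjusted p = 0.0360), a call lost with any 1 array left out. The summed level was 15.41 to 15.43 with vehicle and 15.19 to 15.22 with purmorphamine. With 1 array left out, 1 to 3 of these falls were called: 1 without vehicle replicate 1 or 2, 2 without vehicle replicate 3 or purmorphamine replicate 2 or 3, and 3 without purmorphamine replicate 1. Myh11 passed in all 6 of these fits, and Myl9 in those that kept vehicle replicates 1 and 2 and purmorphamine replicate 3. Lgr6 passed only without vehicle replicate 3 and Cnn1 only without purmorphamine replicate 1.

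**Figure D4:**
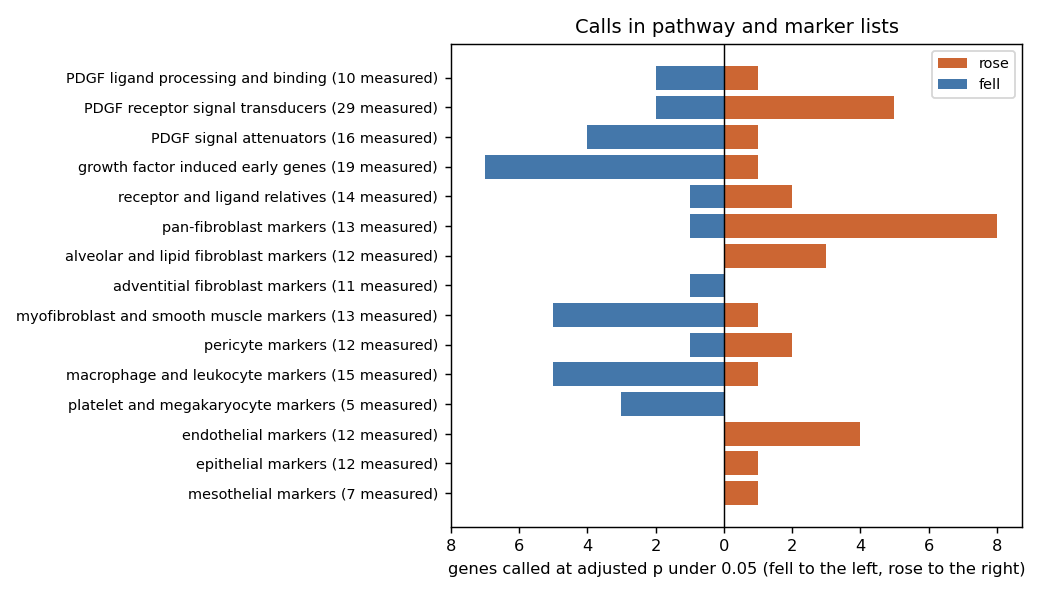
Number of genes called at a limma adjusted p under 0.05 in each pathway and marker list (horizontal axis, risen genes to the right in orange, fallen genes to the left in blue), with the number measured beside each name. Pan-fibroblast markers had 8 rises, and growth factor induced early genes had 7 falls.

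Of 10 proteases and partners that act on PDGF ligands outside the cell or at its surface, 1 rose, 2 fell and 7 did not pass. Plat, tissue plasminogen activator and the protease known to activate PDGF-C, had a mean of 8.14 with vehicle and 8.89 with purmorphamine, a rise of 0.75 (SE 0.06, n = 3 per group, limma adjusted p = 0.000474). Plau, urokinase, which activates PDGF-D, went from 10.99 to 10.41, a fall of 0.58 (SE 0.05, limma adjusted p = 0.000663). Nrp1, a co-receptor for PDGF and VEGF ligands, fell by 0.36 (limma adjusted p = 0.00475). All 3 calls held with any 1 array left out. Furin, a convertase that processes PDGF-A and PDGF-B and was picked after its value was seen, differed by -0.18 (limma adjusted p = 0.0545).

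Most transducers that dock on the activated receptors or act just downstream did not pass the test. Of 29 measured, 5 rose, 2 fell and 22 did not pass, with a median difference of 0.02. Plcg1, the phospholipase C that binds the receptor tails, rose by 0.30, the phosphoinositide 3-kinase subunit gene Pik3cb by 0.28, and the adaptor gene Nck2 by 0.24. Vav3, a guanine nucleotide exchange factor gene, fell by 0.42. The other fall, that of the small GTPase gene Rac1 by 0.21, was picked after its value was seen and held with 1 array left out only without purmorphamine replicate 2. With 1 array left out, 1 to 4 of the rises were called: 1 without vehicle replicate 1 and 2 when either vehicle replicate 2 or 3 or purmorphamine replicate 1 or 3 was omitted. Pik3cb was not called when vehicle replicate 1 or 3 or purmorphamine replicate 3 was omitted, and Nck2 not without any 1 vehicle array or purmorphamine replicate 1. Plcg1 and Vav3 passed in all 6 cases.

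Of 16 attenuators of the receptor signal, 4 fell, 1 rose and 11 did not pass, with a median difference of -0.05. Dusp6, the phosphatase of ERK that ERK signalling itself induces, fell by 0.72 (SE 0.06, limma adjusted p = 0.000546), from a mean of 11.21 to 10.49. The tyrosine phosphatase genes Ptpn1, whose product PTP1B dephosphorylates PDGF receptors, and Ptpn6, chiefly of blood cells, fell by 0.40 each. The feedback inhibitor gene Spry1 fell by 0.32, a call that with 1 array left out held only without purmorphamine replicate 1. The 1 rise, that of Ptpn12 by 0.23, was picked after its value was seen and was lost with any 1 array left out.

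Some early genes that growth factors such as PDGF induce fell in the arrays where the receptor genes were higher. Of 19 measured, 7 fell, 1 rose and 11 did not pass, with a median difference of -0.15. Fos fell by 0.90, from 8.07 to 7.17 (SE 0.07, limma adjusted p = 0.000560). Srf, the serum response factor that drives many of these genes, fell by 0.56, Zfp36 by 0.48 and Klf10 by 0.48. The single rise was that of the hyaluronan synthase gene Has2, picked after its value was seen, by 0.26, and it was not called when vehicle replicate 1 or 2 or purmorphamine replicate 1 was omitted. Cells were grown in serum, and these genes respond to many stimuli, so their levels are not a readout of PDGF alone.

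Kit, Csf1r and Flt3 encode the other class III receptor tyrosine kinases, the family of the PDGF receptors, and VEGF proteins share the ligand fold. Of 14 such receptors and ligands measured, 2 rose and 1 fell. Kit rose by 0.35 (limma adjusted p = 0.00796), from a dim 6.71 to 7.06, Vegfa rose by 0.35, and Csf1r, also counted as a macrophage marker, fell by 0.63. In the RefSeq gene order Kit is the next coding gene after Pdgfra, with Kdr beyond it, and Csf1r is the next coding gene after Pdgfrb. Kdr differed by 0.06, and Chic2 and Gsx2, on the other side of Pdgfra, by 0.04 and -0.04, none of which passed. Pdgfrb and Csf1r, neighbours in the genome, therefore moved in opposite directions. Next to Pdgfrl, Mtus1 fell by 0.93. Beside Pdgfd, the caspase genes Casp12 and Casp4 rose by 0.72 and 0.52, and Fam20c, the second gene from Pdgfa on one side, fell by 0.58. All other measured coding genes within 2 places of a PDGF gene did not pass, among them every one beside Pdgfb and Pdgfc. Over all genes tested, 14.3% were called, and whether position played a part was not tested.

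Likeness to a called PDGF gene was measured as the root mean square difference, over 6 arrays, between the deviations of both genes from their own vehicle means. The 5 genes nearest to Pdgfra were Grem1 at 0.04, a BMP antagonist of mesenchyme that rose by 0.86, then Trib3, Lhfpl2, Steap4 and Awat1, which rose by 0.80 to 0.86. Those nearest to Pdgfrb were Selenos at 0.02, Cdkn1b, Cc2d2a, Dap and Cnpy2, and those nearest to Pdgfrl were Pnpla2 at 0.02, Jund, Rab2b, Reck and Sema4d. The arrays share their treatment groups, and many genes rose by similar amounts, so nearness in this measure is a description of these 6 arrays.

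**Figure D5:**
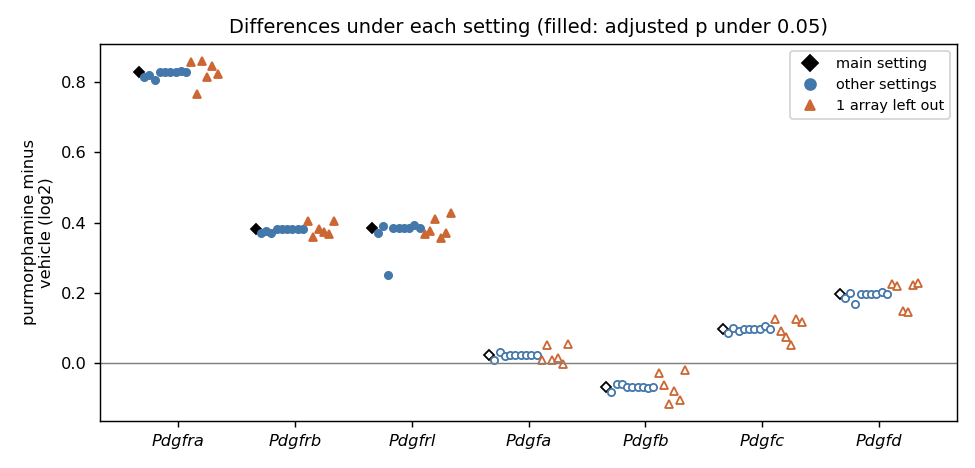
Purmorphamine minus vehicle (log2, vertical axis) for each PDGF gene under the main setting (black diamond), other processing settings (blue circles) and with 1 array left out (orange triangles), filled where the limma adjusted p was under 0.05. The receptor genes are filled under every setting drawn, with Pdgfra between 0.77 and 0.86, and the ligand genes are open under every setting drawn.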

How the data were processed

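Total RNA of 6 wells, 100 ng each, was amplified from a poly(T) primer, biotinylated and hybridised to Affymetrix arrays, per the labels' protocols. The authors deposited 1 value for each probe set on each array, on the log2 scale. The submitters' processing notes name oligo, RMA and limma, with versions not given in the sources used here. RMA gives arrays equal distributions, which hides any shift that all genes share. Of 41345 probe sets, 23521 had 1 gene symbol in the supplied platform annotation, and the brightest probe set per gene left 22180 genes. Purmorphamine minus vehicle was fitted with limma 3.58.1 (lmFit, eBayes) in R 4.3.3, two-sided, with p-values adjusted by Benjamini-Hochberg over the 22180 genes, and tested on simulated data. Precision is limited by the number of arrays, with a median SE of 0.07. Arrays of a group correlated at 0.996 to 0.997 across genes. Members and lists were chosen with earlier results of these data known. The text names all members, at most 4 called genes per list by smallest p, and the 2 brightest of each marker list. It also names the neighbours of Pdgfra, the called neighbours of other members, and the 5 genes most like each called member. Listed genes without a named probe set were not analysed here.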

Additional observations from a re-analysis of the deposited data

How the results depend on the processing

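The 3 calls among PDGF genes held in all 15 alternative fits drawn up from the start (median centring, quantile normalization, 50 added on the linear scale, a filter that drops 0.333 of the genes as too dim, the mean of probe sets, every probe set tested, a trend and robust fit, array weights, the replicate block and each array left out), and at an adjusted p under 0.1. With 1 array left out, 3 members were called, 3 risen and 0 fallen, in every case, Pdgfra differed by 0.77 to 0.86, Pdgfrb by 0.36 to 0.40, Pdgfrl by 0.36 to 0.43, and Pdgfra minus Pdgfrb by 0.41 to 0.48. Pdgfa, at 0.02, lay between -0.0017 and 0.055 in these fits, the lowest without purmorphamine replicate 2. Centred on pan-fibroblast markers, a scaling chosen after seeing the data, Pdgfra kept its call. Pdgfrb and Pdgfrl lost theirs, at 0.15 each (limma adjusted p = 0.0525 and 0.0848). On that scale Pdgfa differed by -0.21, Pdgfb by -0.30, Pdgfc by -0.13 and Pdgfd by -0.033. The median difference of all genes moved to -0.24, and the causes were not tested. Over all genes 3181 were called, and 1967 to 2374 with fewer arrays (897 to 1168 risen, 1057 to 1206 fallen). The counts over 1.5 times lower were 2034 and 2110, where vehicle replicate 2 or 3 was omitted, and 1967 and 2065, where purmorphamine replicate 1 or 3 was omitted. Risen genes were 1052 with every probe set tested, which adjusts over more tests, and 2416 with the trend and robust fit, against 1593.

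With the replicate number as a block, 2432 genes were called and Pdgfra, Pdgfrb and Pdgfrl kept their calls (limma adjusted p = 0.00457, 0.0206 and 0.0308). Deviations of same-numbered arrays correlated across genes at 0.11, 0.02 and 0.10, and those of different-numbered arrays at -0.095 to -0.0076. Each array thus correlated best with its own number. On the second principal component, with 13.2% of the variance, replicate 3 of both groups (-13.6 and -9.6) stood apart from the other arrays (3.1 to 6.9). A structure shared by number is therefore possible. The main fit leaves the number out because the labels name no batch. Dim genes such as Pdgfrl are limited by signal over background, for which the values used here hold no detection call. List counts, mostly of few genes, moved by over 1.5 times in 95 combinations of a list, a direction and a setting.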
